A study of Saccharomyces cerevisiae with 12 samples.

Results

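The genes described here are the 9 genes of inositol and phospholipid synthesis INO1, ITR1, CHO1, PSD1, CHO2, OPI3, INO2, INO4 and OPI1 of the budding yeast Saccharomyces cerevisiae. They were taken by their systematic identifiers from a table of 7192 features, and all 9 were among the 6237 genes that passed the filter on low counts. RNA was sequenced from 6 cultures incubated with CSL, a lectin (a sugar-binding protein) of the clam Cyclina sinensis, and from 6 cultures that received no treatment. All 12 were labelled wild-type, with no strain name. They grew shaken at 200 rpm and 30 °C in YPD, a complex medium with glucose, and were taken while growing exponentially. The labels give neither the dose of the lectin, nor the length of the incubation, nor a mock treatment of the controls. Samples are called lectin 2, 3, 4, 5, 6 and 8 and control 2, 3, 4, 6, 7 and 8, after the numbers in their titles. The series text calls them biological replicates without saying how each was grown. P-values set the difference between the groups against the spread within them. They speak to the treatment only if the 6 samples of each group were independent cultures. By its title, the study asked how this lectin acts on the transcriptome of fermenting yeast.

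Yeast makes inositol from glucose 6-phosphate and builds it, with serine, ethanolamine and choline, into the lipids of its membranes. The activators Ino2 and Ino4 bind as a pair to a promoter element called UASINO and switch on the genes of this pathway. The repressor Opi1 is held at the endoplasmic reticulum by phosphatidic acid, and when this lipid is used up, for example after inositol has been added to the medium, Opi1 enters the nucleus and lowers transcription of the same genes. INO1 is the classic reporter of this circuit.

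The letters CATGTG, the core that Ino2 and Ino4 recognise, were searched for on both strands in the 300 bases before the start codon of each gene in the R64 genome. On the strand opposite to the gene they read CACATG. At least 1 match was present upstream of 8 of the 9 genes, and upstream of 429 of 6001 protein-coding genes (7.15%). At least 2 matches, overlapping ones included, were present upstream of 5 of the 9 genes and of 36 of all 6001 (0.6%). The genes were put on the list as known targets or regulators of this circuit, so the match rate describes the list and is no independent evidence. INO1, ITR1, CHO1 and PSD1 are shown from base -300 to base -151 before the start codon because the lectin and control samples did not overlap in these genes. The sequences run 5′ to 3′ on the strand of the gene, were read from the RefSeq R64 genome, and have the matched letters in capitals.
INO1, chrX:136084-136233, minus strand: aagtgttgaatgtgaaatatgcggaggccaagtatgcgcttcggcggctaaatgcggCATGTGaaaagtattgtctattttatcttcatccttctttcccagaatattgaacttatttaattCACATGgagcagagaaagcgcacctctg
ITR1, chrIV:1445618-1445767, minus strand: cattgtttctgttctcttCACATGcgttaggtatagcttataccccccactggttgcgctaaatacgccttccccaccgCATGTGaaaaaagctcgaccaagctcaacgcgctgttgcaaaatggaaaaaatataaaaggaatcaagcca
CHO1, chrV:208625-208774, minus strand: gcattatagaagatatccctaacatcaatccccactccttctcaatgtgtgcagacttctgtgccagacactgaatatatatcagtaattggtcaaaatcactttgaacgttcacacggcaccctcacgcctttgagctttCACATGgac
PSD1, chrXIV:317822-317971, minus strand: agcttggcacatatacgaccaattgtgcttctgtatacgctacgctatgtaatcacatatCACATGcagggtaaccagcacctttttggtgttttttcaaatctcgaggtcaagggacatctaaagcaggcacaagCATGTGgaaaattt

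The other matches are shown as stretches of 26 bases, since they let a reader set the genes that moved less, or the other way, beside these. In INO2 the matches on both strands overlap in one palindrome.
INO2, chrIV:699599-699624, minus strand: aagtacaacaCACATGTGaatttttt
INO4, chrXV:111992-112017, minus strand: acaaaatattCACATGtttttctcac
OPI3, chrX:573132-573157, minus strand: aatgagagtgCATGTGgaaagttgca
OPI3, chrX:573068-573093, minus strand: tgcaaacccaCACATGcatcgttggt
CHO2, chrVII:802163-802188, plus strand: attcccttctCATGTGaagagttcac

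OPI1 held no match in its 300 bases. The matches began between base -282 (ITR1) and base -121 (INO4), counted back from the start codon. Genes with a match included ones that were lower with lectin, one that was higher and ones that did not pass the test.

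**Figure D1:**
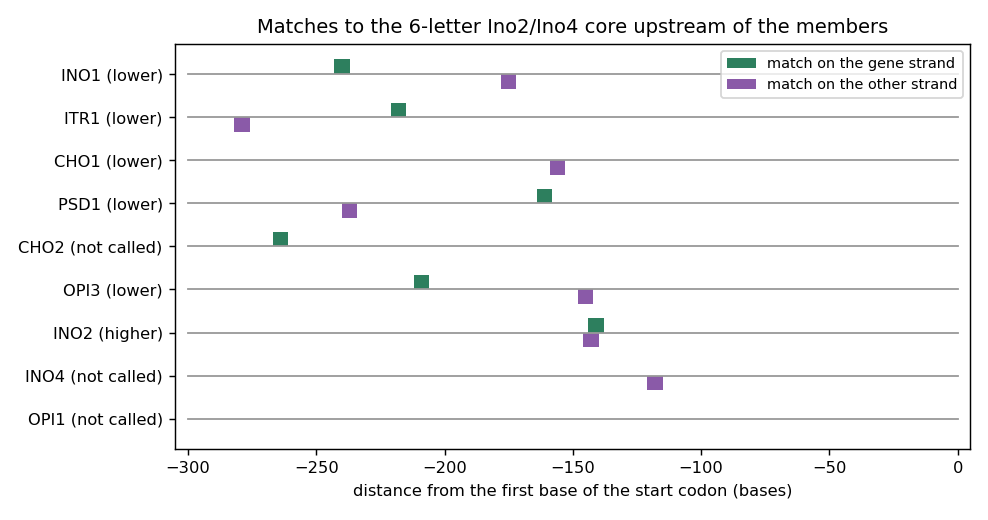
Positions of the matches to CATGTG (green, on the strand of the gene; purple, on the other strand) in the 300 bases before the start codon of each gene, with distance in bases on the horizontal axis and the test result of lectin against control beside each name. 8 of the 9 genes hold a match, and OPI1 holds none.

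Total counts were between 17303313 and 21354011 in the lectin samples and between 17380109 and 19753992 in the control samples. The 30 pairs of samples within a group all differed by more than sampling noise, with chi-square values of 6.71 to 59.1 times their degrees of freedom. On the first principal component of log2 CPM, lectin samples lay between 1.12 and 10.5 and control samples between -10.3 and -5.25. Lectin 5, the largest library, was the lectin sample nearest to the controls. The labels name no mating type, and genes of both types were counted. The summed normalized counts of 4 MATa marker genes were 652 to 750 in lectin samples and 927 to 1078 in control samples, and 4 of the 4 passed the test as lower. The sums of 2 MATalpha marker genes were 758 to 899 in lectin samples and 1199 to 1309 in control samples, of which MF(ALPHA)1 passed as lower and STE3 did not pass. No marker was at 0, and their part in the results below was not tested.

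Of the 9 genes, 5 fell and 1 rose with lectin at an adjusted p under 0.05 (DESeq2 Wald test, Benjamini-Hochberg adjustment over 6237 genes). Among all genes tested 31.5% passed, 16.1% as lower and 15.4% as higher. The enzyme and transporter genes INO1, CHO1, PSD1, ITR1 and OPI3 fell, the activator gene INO2 rose, and CHO2, INO4 and OPI1 did not pass. In INO1, CHO1, PSD1 and ITR1 the highest lectin sample was below the lowest control, which held for 6.72% of all genes, while 5.85% had all lectin samples higher and 12.6% had no overlap in either direction. None of the 9 reached the study's own threshold of an absolute log2 fold change of 1, which 0.257% of all genes passed. The median log2 fold change of the 9 was -0.18, and that of all genes tested was 0.0017. edgeR's quasi-likelihood test called the same 6 genes in the same directions, and 29.1% of all genes. Without lectin 5, the log2 fold changes were -0.57 for INO1, -0.28 for ITR1, -0.46 for CHO1, -0.41 for PSD1, -0.04 for CHO2, -0.19 for OPI3, 0.34 for INO2, 0.09 for INO4 and 0.09 for OPI1. The same 6 genes passed DESeq2 as with all samples, and OPI1 differed most in proportion, as its value with all samples was 0.04. Fewer cells carrying an RNA and less of that RNA per cell cannot be told apart in such bulk samples.

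**Figure D2:**
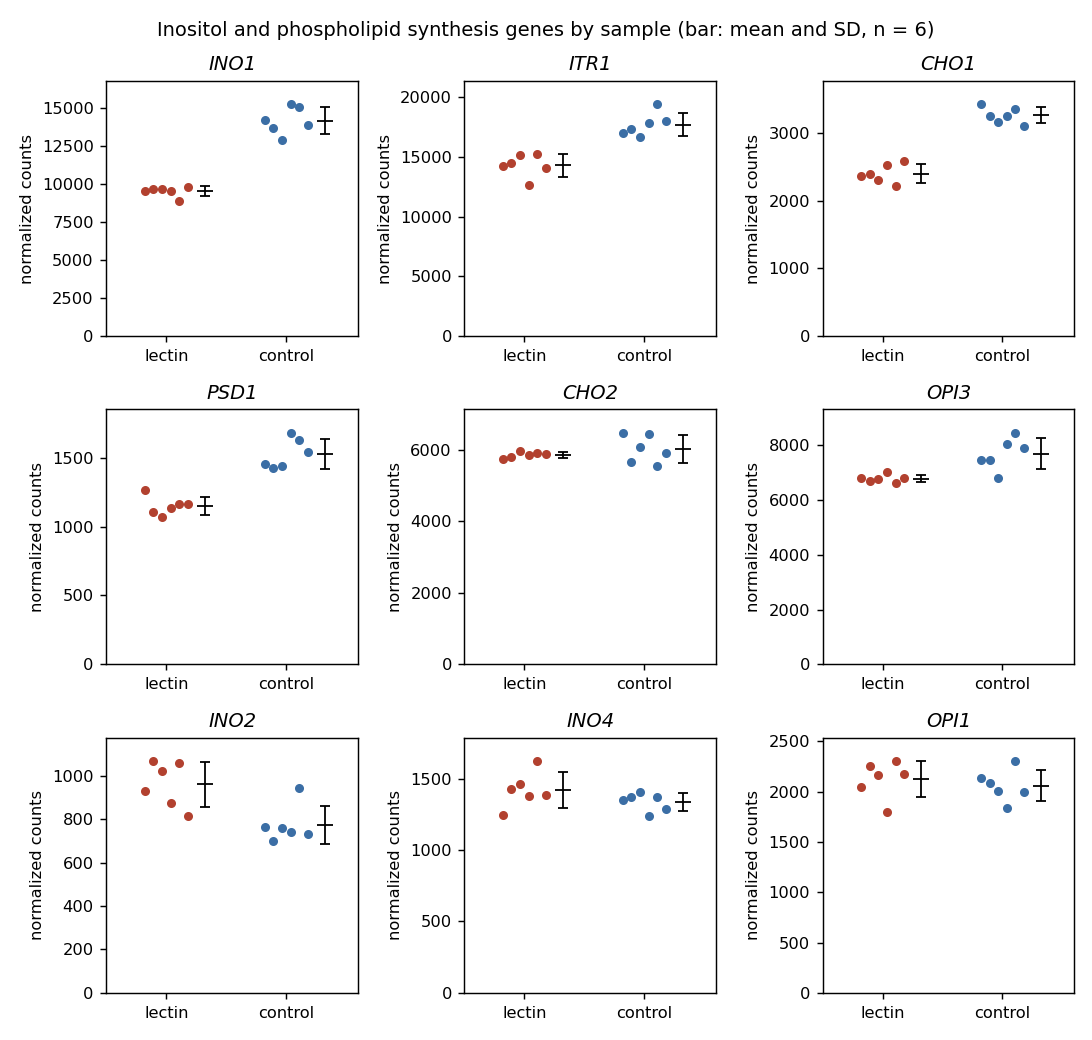
Normalized counts (vertical axes, each from 0) of the 9 genes in each of 6 lectin samples (red, left) and 6 control samples (blue, right), with the mean and SD at the right of each group. The groups are fully apart in INO1, ITR1, CHO1 and PSD1 and overlap in the other 5 genes.

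The first genes supply inositol. INO1 (YJL153C, chromosome X, 134332 to 135933, minus strand, 1 coding exon) encodes inositol-3-phosphate synthase, the rate-limiting enzyme of inositol synthesis. Its normalized counts ran from 8905 to 9783 in lectin samples, with a median of 9612, and from 12885 to 15239 in control samples, with a median of 14039. The lectin samples lay wholly below the controls. Lectin 6 was the lowest, apart from the other lectin samples at 9552 to 9783. The means were 9523 ± 314 in the lectin group and 14163 ± 885 in the control group (SD, n = 6 each). On the log2 scale the fold change was -0.57 ± 0.046 (SE), a level 0.672 times that of the controls, with an adjusted p of 9.9e-34 in DESeq2 and 2.3e-07 in edgeR. The size of this change exceeded that of 98.1% of all genes tested, and INO1 stood at rank 19 of 6237 by p-value.

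ITR1 (YDR497C, chromosome IV, 1443713 to 1445467, minus strand, 1 coding exon) encodes the major transporter that takes up inositol from the medium. Lectin samples had 12643 to 15273 normalized counts, with a median of 14341, and control samples had 16636 to 19401, with a median of 17569. Lectin 5 was the lowest of all 12 samples, and the groups did not overlap. The log2 fold change was -0.31 ± 0.052 (SE; adjusted p = 8.2e-08 in DESeq2). ITR1 is 76.1% identical over 1538 bases to ITR2, a minor inositol transporter gene, and the other 8 genes had no other gene that similar in the R64 annotation. ITR2 itself had 2882 ± 196 normalized counts with lectin and 2766 ± 126 in controls (SD, n = 6 each), a log2 fold change of 0.06 that did not pass the test (adjusted p = 0.414 in DESeq2).

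Phosphatidylserine and phosphatidylethanolamine come next in the pathway. CHO1 (YER026C, chromosome V, 207644 to 208474, minus strand, 1 coding exon) encodes phosphatidylserine synthase, which joins serine to CDP-diacylglycerol. Its normalized counts were 2216 to 2587 in lectin samples, with a median of 2380, and 3111 to 3429 in control samples, with a median of 3256. Again no lectin sample reached the lowest control. The means were 2400 ± 138 with lectin and 3264 ± 119 in controls (SD, n = 6 each). The log2 fold change was -0.44 ± 0.045 (SE; adjusted p = 2.3e-20 in DESeq2, 2.0e-06 in edgeR), a decrease to 0.735 times the control level.

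PSD1 (YNL169C, chromosome XIV, 316169 to 317671, minus strand, 1 coding exon) encodes the mitochondrial decarboxylase that turns phosphatidylserine into phosphatidylethanolamine. It was at 1072 to 1265 normalized counts in lectin samples, with a median of 1149, and at 1425 to 1680 in control samples, with a median of 1499. The groups were apart, with lectin 2 the highest of the lectin samples. PSD1 fell with a log2 fold change of -0.41 ± 0.057 (SE; adjusted p = 2.0e-11 in DESeq2, 2.6e-05 in edgeR). PSD2, the gene of the second decarboxylase, which works in endosomes and the Golgi, had a log2 fold change of -0.06 and did not pass (adjusted p = 0.435 in DESeq2).

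The methyltransferases that make phosphatidylcholine from phosphatidylethanolamine moved less. CHO2 (YGR157W, chromosome VII, 802440 to 805049, plus strand, 1 coding exon) encodes the enzyme of the first methylation. Lectin samples had 5736 to 5962 normalized counts, with a median of 5861, and control samples had 5536 to 6478, with a median of 5995. All 6 lectin samples lay inside the control range. The log2 fold change was -0.04 with a 95% confidence interval from -0.12 to 0.05 (adjusted p = 0.537 in DESeq2).

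OPI3 (YJR073C, chromosome X, 572315 to 572935, minus strand, 1 coding exon) encodes the enzyme of the later methylations. It had 6599 to 7018 normalized counts in lectin samples, with a median of 6767, and 6805 to 8443 in control samples, with a median of 7674. Below the lowest control, which was control 4, lay 4 of the 6 lectin samples. OPI3 fell with a log2 fold change of -0.18 ± 0.049 (SE; adjusted p = 0.00145 in DESeq2, 0.0098 in edgeR). In both methyltransferase genes the lectin samples spread less than the controls, with an SD of 1.40% of the mean with lectin and 6.50% in controls in CHO2, and 2.10% with lectin and 7.47% in controls in OPI3. The difference in spread was not tested.

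Because CHO1, CHO2 and OPI3 act in one route, their ratios within each sample are described, with no test, since these pairs were chosen after their fold changes were seen. Such ratios do not depend on how libraries are scaled. The raw count of CHO1 was 0.409 times that of CHO2 in the lectin group and 0.543 times in the control group (geometric means). The mean log2 ratio differed by -0.41 between lectin and control. CHO1 against OPI3 differed by -0.27, at ratios of 0.354 with lectin and 0.426 in controls, and the groups were apart in both ratios. OPI3 against CHO2 differed by -0.14, at ratios of 1.16 with lectin and 1.28 in controls, and the groups overlapped. This last difference was -0.09 without control 7.

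The regulators did not move as one. INO2 (YDR123C, chromosome IV, 698554 to 699468, minus strand, 1 coding exon) encodes the limiting partner of the activator pair. It had 817 to 1067 normalized counts in lectin samples, with a median of 976, and 698 to 941 in control samples, with a median of 751. Control 7 was far above the other controls, and 3 of the 6 lectin samples exceeded it. The means were 961 ± 104 with lectin and 773 ± 86.0 in controls (SD, n = 6 each). INO2 rose by a log2 fold change of 0.31 ± 0.083 (SE; adjusted p = 9.9e-04 in DESeq2, 0.0056 in edgeR), and without control 7 the value was 0.38.

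INO4 (YOL108C, chromosome XV, 111431 to 111886, minus strand, 1 coding exon) encodes the partner of Ino2. Its normalized counts were 1244 to 1622 in lectin samples, with a median of 1405, and 1236 to 1406 in control samples, with a median of 1362. The groups overlapped, and the log2 fold change was 0.09 with a 95% confidence interval from -0.03 to 0.20 (adjusted p = 0.29 in DESeq2).

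OPI1 (YHL020C, chromosome VIII, 66242 to 67456, minus strand, 1 coding exon) encodes the repressor. It was at 1796 to 2302 normalized counts in lectin samples, with a median of 2171, and at 1834 to 2299 in control samples, with a median of 2045. Lectin 5 was the lowest and lectin 6 the highest of the 12. The log2 fold change was 0.04 with a 95% confidence interval from -0.09 to 0.17 (adjusted p = 0.657 in DESeq2).

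3 further ratios set the regulators against each other and against INO1. They were chosen with earlier results of these data known, so their p-values are no independent evidence. The raw count of INO1 was 4.50 times that of OPI1 in the lectin group and 6.88 times in the control group, a difference of -0.61 in mean log2 ratio. Lectin samples lay between 3.87 and 5.33 and control samples between 6.43 and 8.31, with no overlap (exact two-sided permutation p = 0.00216, the smallest that 924 splits allow, and 0.00649 adjusted over these 3 ratios). INO1 had a log2 fold change of -0.57 and OPI1 of 0.04, so this ratio largely restates the fall of INO1. The raw count of INO2 was 0.452 times that of OPI1 with lectin and 0.375 times in controls, a difference of 0.27 (exact permutation p = 0.00866, adjusted 0.013). In that ratio lectin 8, at 0.375, lay inside the control range of 0.335 to 0.410, and the other 5 lectin samples lay above it. INO2 against INO4 stood at 0.676 with lectin and 0.576 in controls, a difference of 0.23 (exact permutation p = 0.0238, adjusted 0.0238). Here lectin samples lay between 0.591 and 0.748 and control samples between 0.509 and 0.6865, so the groups overlapped. INO2 had a log2 fold change of 0.31 and INO4 of 0.09, so both ratios with INO2 largely restate its rise.

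**Figure D3:**
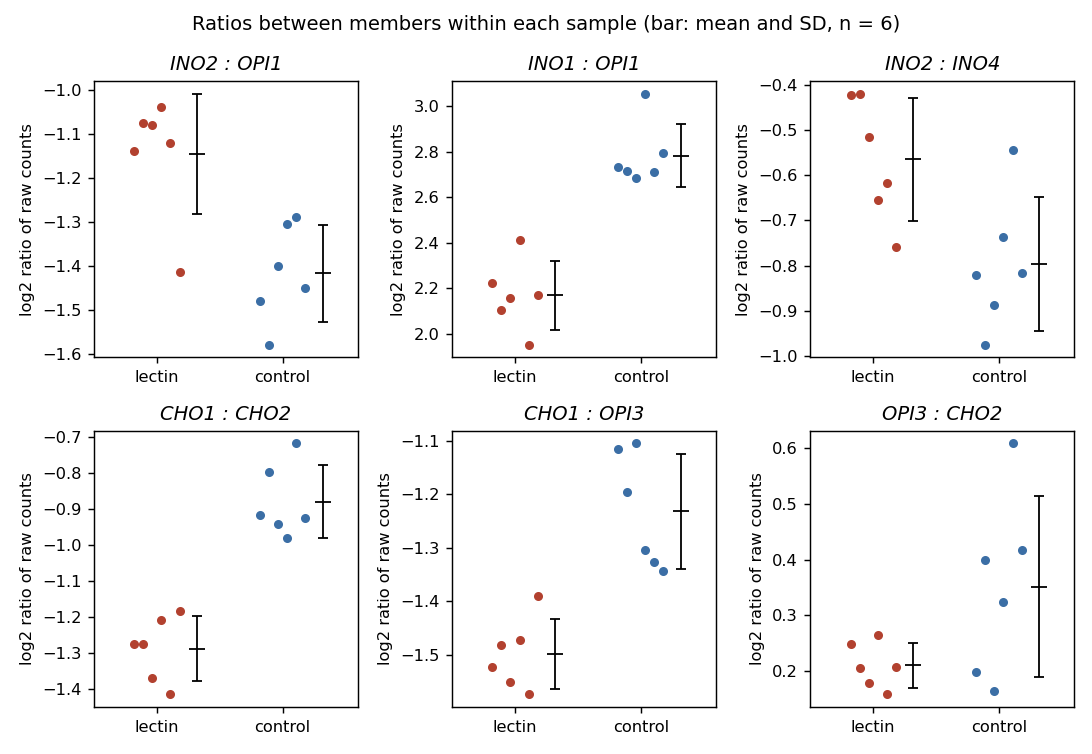
Log2 ratio of the raw counts of a pair of genes within each sample (vertical axes) for 6 lectin samples (red, left) and 6 control samples (blue, right), with the mean and SD beside each group. The groups are apart in INO1 to OPI1, CHO1 to CHO2 and CHO1 to OPI3 and overlap in the other 3 ratios.

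Levels of different genes were compared as normalized counts per kb of gene length. OPI3 was highest in both groups, at 10907 ± 229 per kb with lectin and 12365 ± 924 in controls (SD, n = 6 each). ITR1 followed with 8144 ± 538 with lectin and 10083 ± 557 in controls, and INO1 was next with 5944 ± 196 with lectin and 8841 ± 552 in controls. These 3 genes did not overlap with one another in lectin samples, whereas in controls OPI3 overlapped with ITR1 and ITR1 with INO1. Over all 12 samples the per-kb level of INO1 was above that of 91.6% of the 5782 genes with a length in the reference.

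Lower in the order, INO4 had 3112 ± 273 per kb with lectin and 2933 ± 140 in controls, and CHO1 had 2888 ± 166 with lectin and 3927 ± 143 in controls. CHO1 was thus above INO4 in the controls with no overlap, and the genes overlapped in lectin samples. CHO2 and OPI1 held the same places in both groups, at 2243 ± 31.5 and 1747 ± 150 per kb with lectin and at 2304 ± 150 and 1695 ± 129 in controls. At the bottom, INO2 had 1050 ± 113 per kb with lectin and 845 ± 94.0 in controls, and PSD1 had 765 ± 43.8 with lectin and 1017 ± 71.9 in controls. INO2 was above PSD1 in lectin samples with no overlap, and in controls the genes overlapped. The 9 genes together held 0.241% ± 0.0079 of all counts in the lectin group and 0.296% ± 0.0076 in the control group (SD, n = 6 each).

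**Figure D4:**
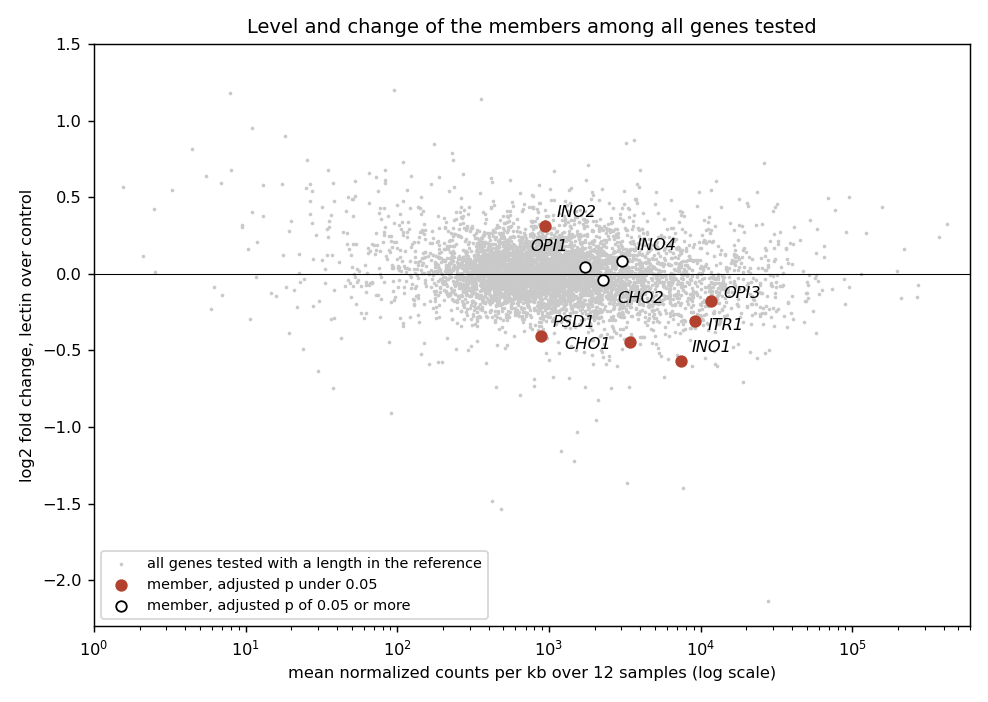
Log2 fold change of lectin over control (vertical axis) against the mean normalized counts per kb over 12 samples (horizontal axis, log scale) for the 5782 genes with a length in the reference (grey) and the 9 genes (red, adjusted p under 0.05; white, 0.05 or more). INO1, ITR1 and OPI3 lie at high levels and below 0, and INO2 is the red point above 0.

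Another 43 genes of the surrounding pathways were listed from textbook knowledge, and all passed the filter on low counts. Of these, 11 fell, 4 rose and 28 did not pass, with a median log2 fold change of 0.01, against the 16.1% of lower and 15.4% of higher genes in the whole table. The supply of phosphatidic acid and CDP-diacylglycerol had 3 lower and 1 higher of 12 genes. DPP1, which encodes a vacuolar lipid phosphatase that removes phosphate from phosphatidic acid, fell by 0.42 on the log2 scale to 3081 ± 136 normalized counts with lectin, against 4110 ± 164 in controls (SD, n = 6 each; adjusted p = 3.4e-21 in DESeq2). CDS1, which makes the CDP-diacylglycerol that Cho1 uses, fell by 0.22 (adjusted p = 4.4e-05 in DESeq2), and AYR1, whose product reduces acyl-dihydroxyacetone phosphate, fell by 0.16 (adjusted p = 0.00978 in DESeq2). SLC1, an acyltransferase gene that forms phosphatidic acid, rose by 0.25 (adjusted p = 3.4e-04 in DESeq2). PAH1, which encodes another phosphatidic acid phosphatase, had a log2 fold change of -0.0004 (adjusted p = 0.999 in DESeq2).

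The Kennedy route, which makes the same lipids from imported choline and ethanolamine, had 2 lower and 1 higher of 7 genes. Among all genes tested 16.1% were lower and 15.4% higher. HNM1, the choline transporter gene, fell by 0.26 with no overlap of the groups (adjusted p = 4.8e-10 in DESeq2). EKI1, which encodes ethanolamine kinase, fell by 0.17 (adjusted p = 0.0167 in DESeq2), and PCT1, which encodes the enzyme that makes CDP-choline, rose by 0.13 (adjusted p = 0.0222 in DESeq2). The call of EKI1 was lost without lectin 4 or control 6, and that of PCT1 without lectin 2, lectin 3, lectin 6, control 6 or control 8, with adjusted p-values of 0.0519 to 0.0732 in DESeq2. Of the 7 other genes of phosphatidylinositol and inositol handling none passed in DESeq2 or edgeR, and only INM1, an inositol monophosphatase gene, had an unadjusted p under 0.05 in DESeq2 (0.0218). PIS1, which encodes phosphatidylinositol synthase and so uses the inositol that Ino1 and Itr1 provide, had 6505 ± 379 normalized counts with lectin and 6116 ± 242 in controls (SD, n = 6 each; adjusted p = 0.125 in DESeq2).

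Among 7 genes of cardiolipin and mitochondrial lipid, 2 were lower, against 16.1% of all genes tested. CRD1, which encodes cardiolipin synthase, fell by 0.18 (adjusted p = 0.00801 in DESeq2), and UPS2, which encodes a carrier of phosphatidylserine into mitochondria, fell by 0.09 (adjusted p = 0.0448 in DESeq2). UPS2 did not pass in edgeR (adjusted p = 0.0782), and its call was lost in 10 of 12 DESeq2 fits without 1 sample, all except those without lectin 5 or control 7. Of 6 genes for regulators of UASINO genes, 2 rose and 1 fell, against 15.4% higher and 16.1% lower of all genes tested. HAC1, the transcription factor gene of the unfolded protein response, rose by 0.32 to 24924 ± 3186 normalized counts with lectin, against 20009 ± 1624 in controls (SD, n = 6 each; adjusted p = 5.7e-04 in DESeq2). UME6, which encodes a DNA-binding regulator, rose by 0.21 with no overlap of the groups (adjusted p = 6.8e-04 in DESeq2), and RPD3, which encodes a histone deacetylase, fell by 0.14 (adjusted p = 0.00962 in DESeq2). SCS2, whose product anchors Opi1 at the endoplasmic reticulum, had a log2 fold change of -0.01 (adjusted p = 0.917 in DESeq2).

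Of 4 fatty acid genes listed as carrying UASINO, 3 were lower, against 16.1% of all genes tested. ACS2, the acetyl-CoA synthetase gene used during growth on glucose, fell by 0.55 to 10156 ± 409 normalized counts with lectin, against 14909 ± 1282 in controls, with no overlap (SD, n = 6 each; adjusted p = 2.5e-21 in DESeq2). ACC1, which encodes acetyl-CoA carboxylase, fell by 0.28 (adjusted p = 9.0e-04 in DESeq2). FAS1, a fatty acid synthase subunit gene, was at -0.16 with an adjusted p of 0.0492 in DESeq2 and 0.0718 in edgeR, and its call was lost in 9 of 12 DESeq2 fits without 1 sample, all except those without lectin 3, 4 or 5. Of the 4 phospholipid genes known to respond to zinc through the factor Zap1, DPP1 and EKI1 fell, and CKI1, which encodes choline kinase, and PIS1 did not pass, with log2 fold changes of -0.11 and 0.09. All 4 also belong to the lists above. The core letters CATGTG were found upstream of 8 of the 43 genes (18.6%), against 7.15% of all protein-coding genes. Some of the 43 were listed as carrying UASINO, so this rate too is no independent evidence.

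**Figure D5:**
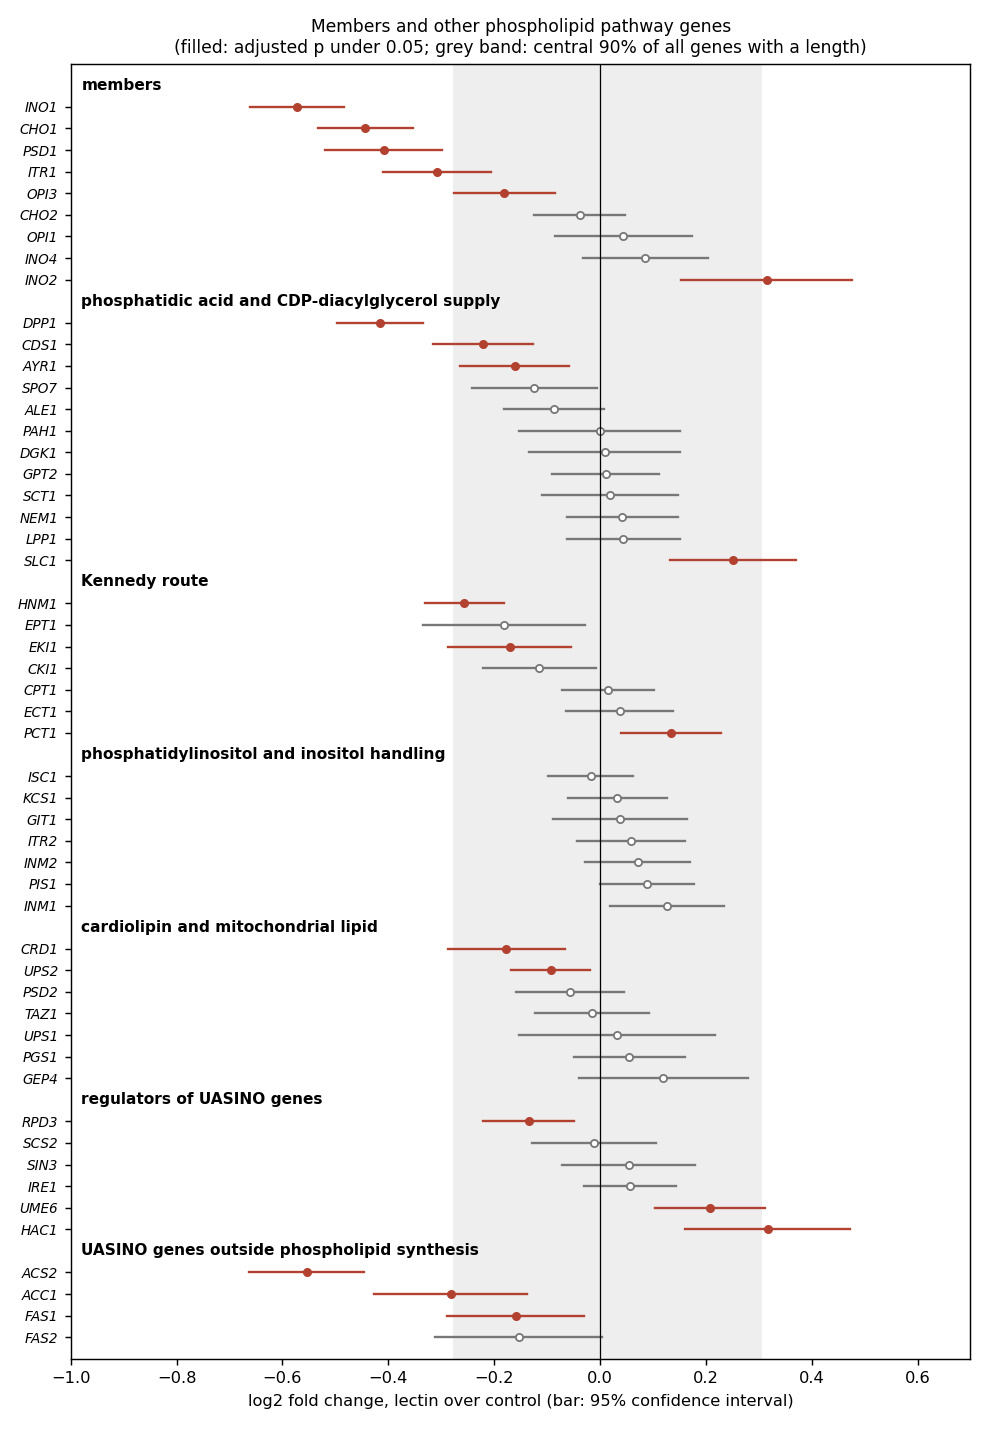
Log2 fold change of lectin over control with its 95% confidence interval (horizontal axis) for the 9 genes and the 43 other pathway genes, grouped by role, with filled red points at an adjusted p under 0.05. The grey band, from -0.28 to 0.30, holds the central 90% of the 5782 genes with a length in the reference. INO1, CHO1, PSD1, ITR1, DPP1 and ACS2 lie below it, ACC1 at its lower edge, and INO2 and HAC1 just above it. The intervals of ITR1, ACC1, INO2 and HAC1 reach into it.

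The 9 genes also varied between samples of the same group. Deviations of log2 normalized counts from the group means were compared over the 12 samples, as a description with no test, since all genes of a sample share its library. Over the 36 pairs of the 9 genes the correlation of these deviations ran from -0.56 (INO4 with PSD1) to 0.81 (INO1 with OPI3), with a median of 0.06. The correlation was above 0.5 in 8 of the 36 pairs. ITR1 went with INO2 at 0.705 and with OPI1 at 0.709. OPI1 also went with INO2 at 0.619 and with INO4 at 0.575. PSD1 went with OPI3 at 0.645 and with INO1 at 0.527, and CHO1 with INO1 at 0.536. INO1 and INO4 were at -0.525. Among 5842 other genes, the most like INO1 were YLR255C, PGA1, AIR2, AFG1 and CDC43, with correlations of 0.85 to 0.90. The most like OPI3 were YLR255C, SNA3, STP22, TUB2 and FMP46, at 0.888 to 0.926. Of these neighbours, TUB2 was lower and FMP46 higher with lectin, and the others did not pass the test, unlike INO1 and OPI3.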

How the data were processed

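The deposited table holds raw counts of reads per gene for 12 samples. Per the series' design text, the authors sequenced strand-specific poly-A libraries in paired-end mode, trimmed the reads, aligned them with HISAT2 and quantified genes with featureCounts. The text speaks of FPKM, while the deposited values are whole-number counts. The submitters' processing notes also name fastp and the genome build R64. Versions, strand setting and handling of multi-mapping reads are not given in the sources used here. Reads on overlapping features can be dropped or shared; none of the 9 genes overlaps another gene of the R64 annotation.

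The test covered the 6237 genes that reached 10 counts in 6 or more samples. The test was the DESeq2 Wald test (1.42.0, R 4.3.3), which the series text names, with group as the only term and median-of-ratios size factors. Normalized counts are counts divided by size factors, and fold changes are unshrunken. Alternatives were edgeR 4.0.16, limma-voom (3.58.1), other scalings and filters, leaving out each sample and the replicate number as a block. The scripts were tested on simulated data. Log2 ratios used counts plus 0.5. Similar genes were sought with blastn 2.17.0.

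All 9 genes are named; of the other lists, genes that passed were named with at most 4 values each, and the 5 genes most like INO1 and OPI3. Further genes were chosen after their values were seen. The genes, lists and tests were chosen with earlier results of these data known. Counting error is large for genes with few counts, and 3 counts correspond to 0.140 to 0.173 CPM.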

Additional observations from a re-analysis of the deposited data

Results flagged for a closer look

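In 32 groups of 6 values (the 9 genes, 6 ratios and the share of all counts, in each group), 4 had a lowest or highest sample whose gap to its nearest neighbour exceeded Dixon's 95% limit, where chance gives about 1 in 20, or 1.6. INO1 was at 8905 normalized counts in lectin 6, the other lectin samples being at 9552 to 9783, nearer to the controls. The INO2 to OPI1 ratio was 0.375 in lectin 8, against 0.454 to 0.487 in the other lectin samples. INO2 was at 941.5 normalized counts in control 7, against 698 to 766 in the other controls. The INO1 to OPI1 ratio was 8.31 in control 6, against 6.43 to 6.95 in the other controls. In the INO2 values and the INO2 to OPI1 ratio, the sample that stood apart lay towards the other group.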

How the results depend on the processing

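The same number of genes, 5 of the 9, was called lower under all 20 alternatives, which covered edgeR, limma-voom, 2 scalings, 2 filters, the replicate block, 10 samples without it, and each sample left out. INO1 ran from -0.60 to -0.55, CHO1 from -0.47 to -0.42, PSD1 from -0.44 to -0.38, ITR1 from -0.33 to -0.25, OPI3 from -0.21 to -0.15 and INO2 from 0.28 to 0.40, each called in 20 of 20. INO4 and CHO2 were called in none, with adjusted p of 0.0851 to 0.607 for INO4 and 0.273 to 0.822 for CHO2. The number called higher became 2 on the 10 samples with shared numbers and no block, where OPI1 was at 0.12 (adjusted p = 0.0483 in DESeq2); the fit leaves out lectin 5 and control 7, and the cause was not tested. All genes called ran from 1646 to 2419 with 1 sample left out. For the 9 genes and the 15 other pathway genes that passed, values of single genes were compared over the same alternatives: 439 kept their direction and call, 40 lost their call, 1 gained one and 0 reversed; the 40 were of PCT1, EKI1, UPS2, RPD3 and FAS1, and the 1 was of OPI1. The 28 pathway genes that did not pass enter only the totals over all 43, which ran from 8 to 12 lower and from 3 to 6 higher.

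The labels do not say that shared numbers (2, 3, 4, 6 and 8) pair the cultures. Deviations of same-numbered samples correlated at -0.116 to 0.183 over genes, with a mean of -0.0268. The mean over the 31 pairs with different numbers was 0.00439. No likeness tied to the number was seen, but 5 pairs are too few to settle whether the cultures were paired. With the number as a block, 1730 genes were called, against 1965 on all 12 samples and 2342 on the same 10 samples with no block. Over the 5 pairs the ratio differences were 0.276 for INO2 to OPI1, -0.68 for INO1 to OPI1, and 0.30 for INO2 to INO4, each with an exact permutation p of 0.0625, the smallest that 5 pairs allow. For the ratios described with no test they were -0.39 for CHO1 to CHO2, -0.29 for CHO1 to OPI3 and -0.101 for OPI3 to CHO2. With 1 sample left out, OPI3 to CHO2 ran from -0.179 to -0.0901. No sample had fewer than 707 raw counts in any of the 9 genes.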
